A study of Mus musculus with 6 samples.

Results

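The 10 transcription factors examined here are known from hair follicle bulge stem cells (SCs) and were followed through RNA-seq of control and ILK-K5 bulge SCs. They are Sox9, Lhx2, Nfatc1, Tbx1, Foxc1, Runx1, Nfib, Nfix, Gata3 and Trp63, chosen by symbol for the roles known from the bulge, and they make up 10 of the 43274 genes in the deposited tables. All 10 averaged 10 or more normalized counts and so were among the 16368 genes tested. Bulge SCs were sorted by FACS from mouse epidermis at postnatal day 21 as CD34+ cells with high surface α6 integrin, with 3 libraries per genotype. The paper describes control follicles at this age as resting, and most ILK-K5 follicles as thicker and longer. It also states that ILK-K5 follicles did not enter the resting phase properly. Genotype and hair cycle stage cannot be told apart in these libraries. Control mice carried the K5-Cre transgene and a single floxed Ilk allele (genotype label ILK +/-), and ILK-K5 mice carried the same transgene and a pair of floxed Ilk alleles (genotype label ILK -/-), both on a mixed C57Bl6-129/Sv background. Cre is thus present in both groups and is driven by the promoter of keratin 5, which is active in basal keratinocytes, and the controls have lost an Ilk allele in these cells. The labels do not say whether the libraries of a genotype come from separate mice, so that p-values measure the spread between these libraries only. A normalized count is the number of reads on a gene divided by a size factor of the library, and fold changes and their standard errors come from limma on the log2 of this value plus 1, as ILK-K5 over control. The fewest reads on a factor in any library were 215, for Foxc1.

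The bulge is the niche in the outer root sheath where the follicle keeps its SCs at rest between hair cycles. A small set of transcription factors is known to keep these cells quiescent and committed to the follicle. Sox9, Lhx2, Nfib and Nfix hold the SC state, Nfatc1, Foxc1 and Tbx1 act on quiescence and self-renewal, Runx1 promotes the entry into growth, Gata3 directs the inner root sheath, and Trp63 is the general regulator of stratified epithelia.

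Libraries held 8228019 to 11969072 reads on genes, of which 11.49% to 27.6% were mitochondrial. The Ilk transcript could not check the genotype, because 89.7% of its exon bases are shared with Rrp8 and Taf10 on the opposite strand. Its normalized counts were 10.6, 16.7 and 38.5 in control and 14.8, 30.9 and 29.2 in ILK-K5 libraries, and the genotypes overlapped (log2 fold change 0.30, standard error 0.64, adjusted p = 0.933 from limma). Of the genes that defined the sort, Cd34 had 2009, 947 and 1960 normalized counts in control and 296, 560 and 433 in ILK-K5 libraries. All ILK-K5 libraries lay below all control libraries, and Cd34 fell by 1.90 on the log2 scale (standard error 0.37, adjusted p = 0.0239 from limma). With single libraries left out it was called in 2 of 6 fits, namely without control library 2 or ILK-K5 library 2 (adjusted p from 0.0200 to 0.0877). The call was also lost with the FPKM table (adjusted p = 0.0509) and with libraries 2 and 3 only (0.137). Itga6, which encodes α6 integrin, was not called (log2 fold change 0.37, standard error 0.25, adjusted p = 0.699). Nor were the bulge markers Krt15 (-1.16, adjusted p = 0.552) and Cd200 (-0.44, adjusted p = 0.662).

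Of the 10 factors, Runx1 was called higher in ILK-K5 bulge SCs and none was called lower, with limma and a limit of 0.05 on the p-value after Benjamini-Hochberg adjustment. Over all genes tested, 2.93% were called higher, 0.599% lower and 3.53% in either direction. Before adjustment, p was under 0.05 for 2 factors, Runx1 and Gata3, and for 12.3% of all genes. With DESeq2 and with edgeR on the recovered reads, Runx1 was likewise the only one of the 10 factors called, against 6.43% and 3.11% of all genes. The libraries of the genotypes did not overlap for 4 of the 10 factors, against 17.9% of all genes. Runx1 was higher in every ILK-K5 library (10.9% of all genes), and Nfatc1, Nfib and Gata3 were lower in every ILK-K5 library (6.95% of all genes). The median log2 fold change of the 10 factors was -0.15, beside 0.0054 over all genes tested, with 4 factors above 0 and 6 below.

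**Figure D1:**
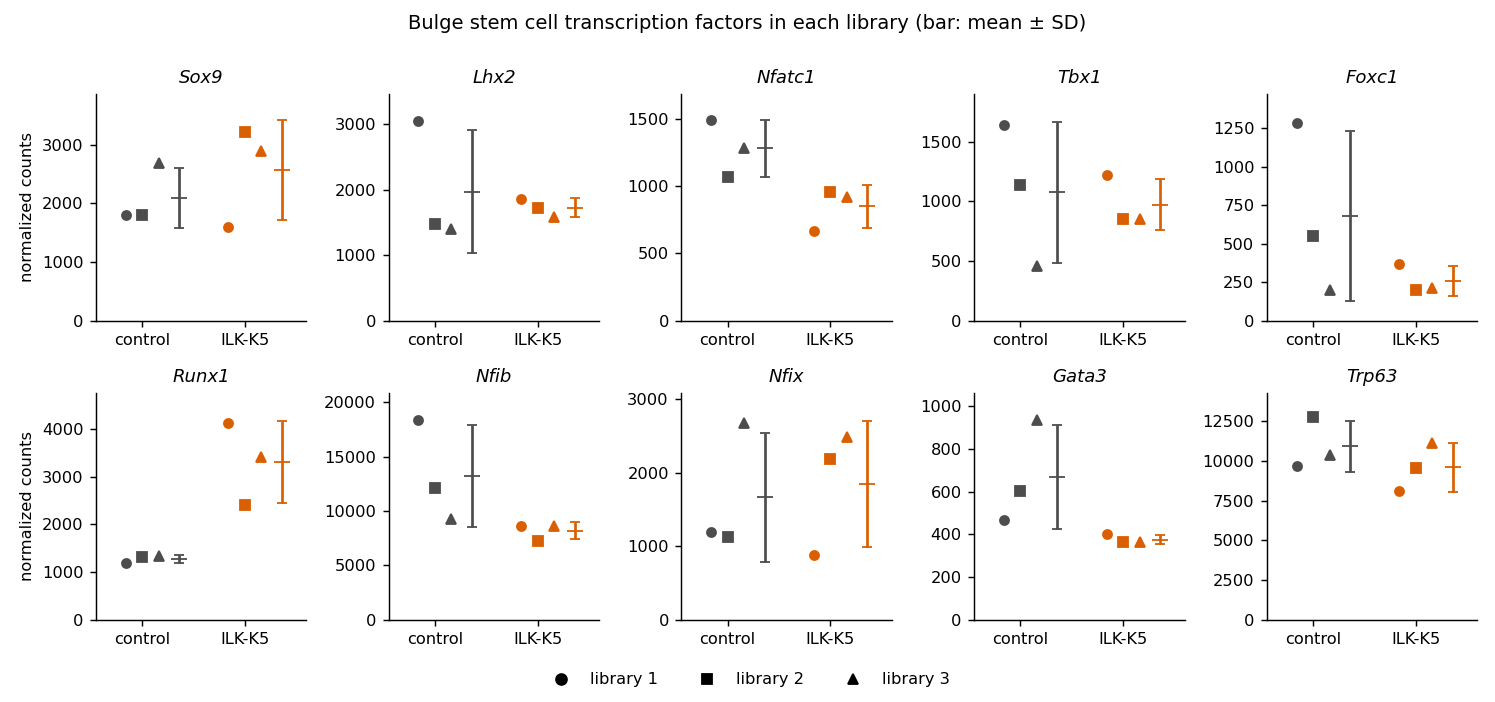
Normalized counts of each of the 10 factors in the 3 control (grey) and 3 ILK-K5 (orange) libraries, with a separate linear axis from 0 for each gene. Symbols mark library 1, 2 or 3, and the bar to the right of each group gives the mean ± SD. The groups are apart for Runx1, Nfatc1, Nfib and Gata3.

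**Figure D2:**
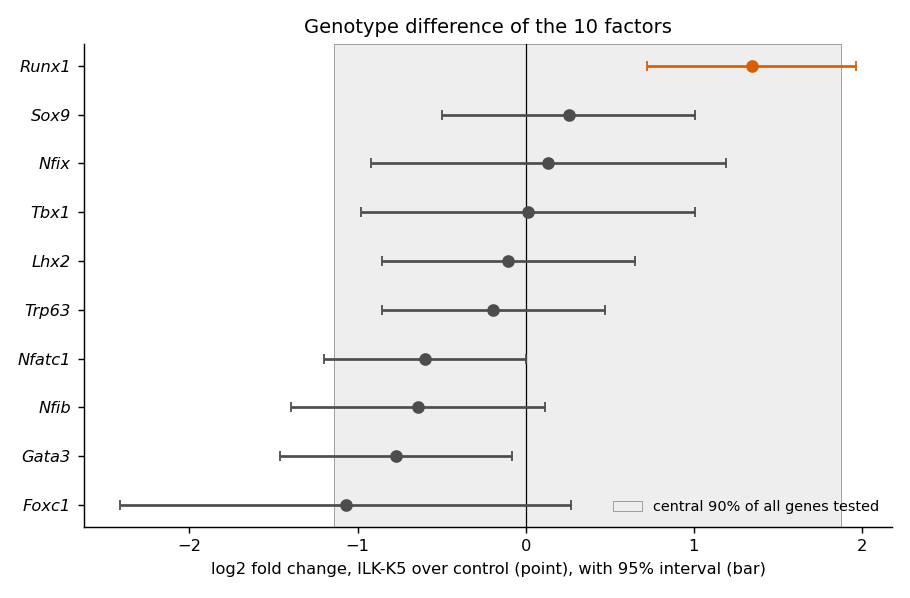
Log2 fold change of ILK-K5 over control for each factor (point) with its 95% interval from limma (bar), in the order of size. Runx1, in orange, is the factor that was called. The grey band holds the central 90% of all genes tested, from -1.14 to 1.88.

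Runx1 encodes a Runt-domain factor that promotes the activation of hair follicle SCs and is also a regulator of blood cell development. The gene is found on chromosome 16 of GRCm38, the build of all coordinates given here (minus strand, 92601466 to 92826149). It had 1184, 1308 and 1332 normalized counts in the controls, and 4125, 2406 and 3402 in the ILK-K5 libraries, in the order of their numbers. The control libraries lay close together, with a standard deviation on the log2 scale of 0.092 that was smaller than that of all but 2.14% of the genes tested, and every ILK-K5 library was well above them. The means were 1275 ± 79.5 (SD, n = 3) and 3311 ± 863 (SD, n = 3) normalized counts. Runx1 rose 2.54-fold in ILK-K5 bulge SCs (95% interval 1.65 to 3.90, log2 fold change 1.34, standard error 0.27, adjusted p = 0.0299 from limma). The direction held in all 19 alternative fits, with log2 fold changes from 1.12 to 1.56. Some of these fits, such as those with another filter, can alter the p-value but not the log2 fold change. The call was lost in the fits without control library 1 (adjusted p = 0.0659), control library 2 (0.0979), ILK-K5 library 1 (0.120) or ILK-K5 library 3 (0.153), and with the FPKM table (0.0524). The column names give library 1 of each genotype a number of its own kind, which the sources do not explain, and libraries 2 and 3 other numbers. With libraries 2 and 3 only, the log2 fold change of Runx1 was 1.12 (adjusted p = 0.130), and with library 1, of which there is a single one per genotype, the difference was 1.80 on the log2 scale, with no test.

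Runx1 is also expressed by leukocytes, and transcripts of leukocytes were far more abundant in the ILK-K5 libraries. All 6 genes of the general leukocyte list, among them Ptprc (CD45), were called higher, and their summed normalized counts were 43.4 to 122 in control and 4057 to 5546 in ILK-K5 libraries. On the macrophage list, 12 of 13 tested genes were called higher, with sums of 809 to 1296 in control and 15645 to 22559 in ILK-K5 libraries, and Fcgr1 was at 0 in all controls. The median log2 fold change of this list was 6.53, and Mertk, the tested gene that was not called, was below 0. Ctss, the most abundant gene of the list over all libraries, averaged only 26.7 in control and 4933 in ILK-K5 libraries. Ctss thus made up little of the control sums, and 4 of the 14 listed genes had at most 3 reads in every control library. The control sums therefore do not describe the list as a group. Among the ILK-K5 libraries, Runx1 was lowest in library 2, where the leukocyte sum (5546, against 4332 and 4057) and the macrophage sum (22559, against 15645 and 17245) were highest. The T cell sum was highest in ILK-K5 library 1, where Runx1 was also highest (904, against 501 and 532 in libraries 2 and 3, and 130 to 174 in control). Il7r and Cd2 were called higher, 2 of the 6 tested genes of this list. On the list of Langerhans and dendritic cells, 3 of 5 genes were called higher, with sums of 52.1 to 541 in control and 11395 to 18814 in ILK-K5 libraries. Of 6 mast cell genes only Kit was tested, and it was not called (log2 fold change 3.81, adjusted p = 0.0578), with Cpa3 and Tpsb2 at 0 in all libraries. Of the remaining lists, Col3a1 was called higher among 4 tested fibroblast genes, whose list summed to 703 to 779 in control and 1532 to 2493 in ILK-K5 libraries, and none was called among 2 endothelial and 3 sebocyte genes. Summed basal keratinocyte transcripts overlapped, with 62830 to 105240 in control and 64732 to 75688 in ILK-K5 libraries. With libraries scaled to their basal keratinocyte genes, the log2 fold change of Runx1 was 1.48 (adjusted p = 0.0293 from limma), beside a median over all genes of 0.14. This scaling moves all genes of a library by the same factor and cannot separate leukocyte from keratinocyte RNA. The part of leukocyte RNA in the higher level of Runx1 was not tested. In sorted populations, a change in the number of cells of a type and a change in RNA per cell cannot be told apart.

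**Figure D3:**
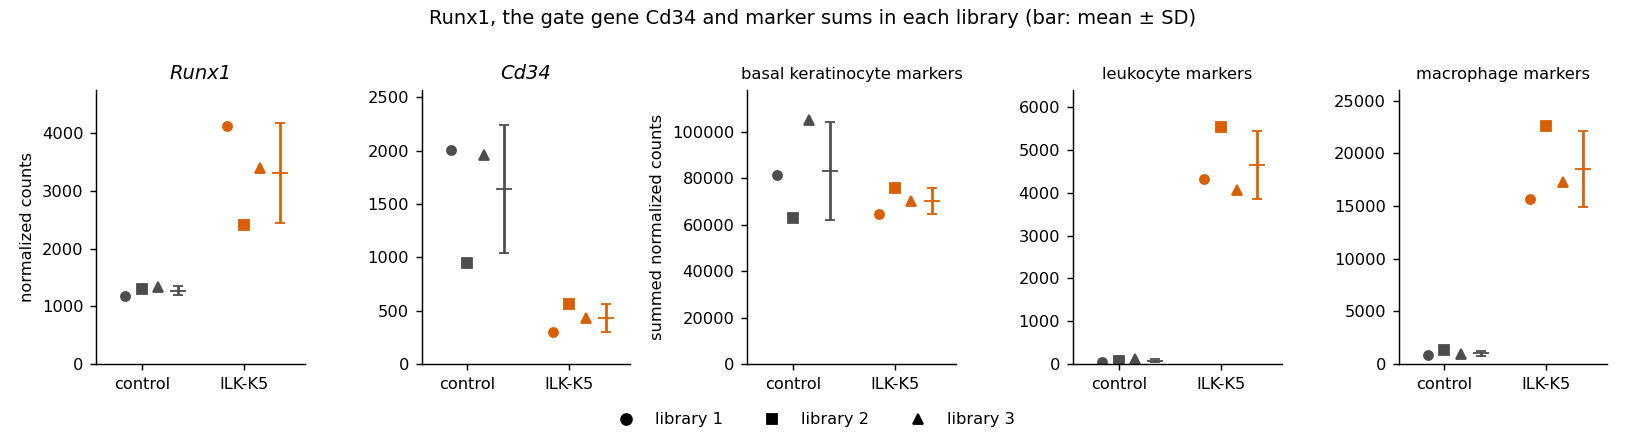
Normalized counts of Runx1 and Cd34, and summed normalized counts of the basal keratinocyte, general leukocyte and macrophage lists, in each control (grey) and ILK-K5 (orange) library on linear axes from 0. Bars give the mean ± SD over 3 libraries. Runx1 and both leukocyte sums were higher in every ILK-K5 library, Cd34 was lower, and the basal keratinocyte sums overlapped.

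Because Runx1 was the factor called, the start regions of its RefSeq transcripts are shown here (GRCm38.p6, minus strand, read 5′ to 3′), namely the 250 bases before the distal start site at chr16:92826075-92826324, the last 30 bases of the same window at chr16:92826025-92826054, and the 250 bases before the proximal start site at chr16:92697330-92697579. Capitals mark the letters TTTCC, the core bound by Nfat proteins, TGTGGT, the core bound by Runx proteins, and TTGGCA, the letters bound by an Nfi subunit, each read on both strands.
Runx1 distal: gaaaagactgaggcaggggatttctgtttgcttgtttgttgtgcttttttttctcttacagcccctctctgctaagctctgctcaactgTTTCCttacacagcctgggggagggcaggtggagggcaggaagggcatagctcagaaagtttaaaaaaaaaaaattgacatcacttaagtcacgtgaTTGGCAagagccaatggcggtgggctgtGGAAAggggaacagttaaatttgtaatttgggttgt
Runx1 distal, end of window: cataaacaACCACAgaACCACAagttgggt
Runx1 proximal: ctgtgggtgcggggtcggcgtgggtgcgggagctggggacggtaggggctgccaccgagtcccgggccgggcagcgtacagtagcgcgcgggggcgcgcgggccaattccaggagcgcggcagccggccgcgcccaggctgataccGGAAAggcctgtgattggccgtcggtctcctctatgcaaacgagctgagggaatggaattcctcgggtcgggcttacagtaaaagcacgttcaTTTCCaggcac
The distal window holds the Runx letters at positions 279 and 287, counted from 1 at the 5′ end of a window of 300 bases that reaches 50 bases past the start site, on the opposite strand in both cases. These letters are present in 16.8% of all 32851 RefSeq promoter windows of that length. It also holds the Nfi letters at position 187 (14.1% of all windows) and the Nfat core at positions 90 and 215. The proximal window holds the Nfat core at positions 147 and 240, and no Runx or Nfi letters. The Nfat core is short and occurs in 61.3% of all windows. The GC content of the distal stretch is 45.6% and that of the proximal stretch 67.6%, beside a median of 52.7% over all windows. A match of letters does not show that a protein binds there.

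Nfatc1, Foxc1 and Tbx1 are the factors of the set that act on quiescence and self-renewal. Nfatc1, a calcium-regulated factor that holds bulge SCs out of the cell cycle, is encoded on chromosome 18 (minus strand, 80606205 to 80713071). It had 1489, 1066 and 1286 normalized counts in control and 669, 957 and 920 in ILK-K5 libraries. Every ILK-K5 library lay below every control library, by the least between ILK-K5 library 2 and control library 2, and Nfatc1 was not called (log2 fold change -0.60, standard error 0.27, 95% interval -1.20 to 0.0036, adjusted p = 0.411 from limma). The difference was -1.15 on the log2 scale in library 1, with no test, and -0.32 in libraries 2 and 3 (adjusted p = 0.728).

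Foxc1, a forkhead factor that returns activated SCs to quiescence, is encoded on chromosome 13 (plus strand, 31806633 to 31812476). It had 1283, 552 and 202 normalized counts in control and 369, 198 and 209 in ILK-K5 libraries. The control libraries spanned 6.36-fold, and control library 3 lay within the ILK-K5 range. Its log2 fold change of -1.07 was the lowest of the 10 factors and also the least certain (standard error 0.59, 95% interval -2.41 to 0.27, adjusted p = 0.577). The value was -0.43 without control library 1 (adjusted p = 0.844) and -1.76 without control library 3 (adjusted p = 0.0739). Its paralog Foxc2 had at most 1 read in every library.

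Tbx1, a T-box factor that limits Bmp signalling in bulge SCs, is encoded on chromosome 16 (minus strand, 18580979 to 18590671). It reached 1635, 1134 and 456 normalized counts in control and 1216, 849 and 848 in ILK-K5 libraries. The ILK-K5 libraries fell inside the control range, and the log2 fold change was 0.02 (standard error 0.44, 95% interval -0.98 to 1.01, adjusted p = 0.997).

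Sox9 and Lhx2 are needed for bulge SCs to form and to keep their identity. Sox9 (chromosome 11, plus strand, 112782224 to 112787760) had 1806, 1794 and 2688 normalized counts in control and 1598, 3217 and 2885 in ILK-K5 libraries. The genotypes overlapped, with ILK-K5 library 1 the lowest of all and ILK-K5 library 2 the highest (log2 fold change 0.26, standard error 0.33, 95% interval -0.50 to 1.01, adjusted p = 0.881). The value was 0.57 without ILK-K5 library 1 (adjusted p = 0.568) and 0.062 without ILK-K5 library 2. Lhx2, a LIM-homeodomain factor (chromosome 2, plus strand, 38339281 to 38369733), had 3052, 1475 and 1395 normalized counts in control and 1867, 1723 and 1578 in ILK-K5 libraries. Control library 1 stood above the other 5 libraries, which lay close together. The difference in Lhx2 was -0.10 on the log2 scale (standard error 0.33, 95% interval -0.85 to 0.65, adjusted p = 0.959), and it was 0.26 without control library 1 (adjusted p = 0.822).

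Nfib and Nfix belong to the nuclear factor I family and keep the enhancers of SC genes open, and Nfib also restrains the melanocyte SCs that share the niche. Nfib (chromosome 4, minus strand, 82290173 to 82705750) had the highest normalized counts of the set in control library 1, with 18425, 12102 and 9247 in control and 8649, 7278 and 8640 in ILK-K5 libraries. The lowest control library was above the highest ILK-K5 library by a small margin, and the control libraries differed among themselves by 1.99-fold. Nfib was not called (log2 fold change -0.64, standard error 0.34, 95% interval -1.40 to 0.11, adjusted p = 0.534). The value was -0.37 both without control library 1 (adjusted p = 0.797) and with quantile normalization (adjusted p = 0.737). The difference was -1.09 in library 1, with no test, and -0.42 in libraries 2 and 3 (adjusted p = 0.752). Nfix (chromosome 8, minus strand, 84699876 to 84800344) had 1200, 1122 and 2683 normalized counts in control and 877, 2190 and 2491 in ILK-K5 libraries. Both genotypes held low and high libraries, and the log2 fold change of Nfix was 0.13 (standard error 0.47, 95% interval -0.92 to 1.19, adjusted p = 0.962). On the melanocyte list, Mitf was called lower and none of the 5 tested genes higher, with 3 genes above 0, 2 below and a median log2 fold change of 0.20. Tyrp1 was higher in every ILK-K5 library, as were 10.9% of all genes, and was not called (3.29, adjusted p = 0.119). The summed normalized counts of the list were 680 to 1308 in control and 269 to 478 in ILK-K5 libraries. Mitf averaged 867 in control and 235 in ILK-K5 libraries and so made up most of these sums, which do not describe the list as a group.

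Gata3, a zinc finger factor of the inner root sheath lineage and of T cells, is encoded on chromosome 2 (minus strand, 9857078 to 9890034). Libraries 1 to 3 held 467, 604 and 937 normalized counts in control and 400, 362 and 364 in ILK-K5 libraries. The ILK-K5 libraries were nearly equal and lay below all controls. Gata3 had an unadjusted p-value from limma of 0.0320 and was not called (log2 fold change -0.77, standard error 0.31, 95% interval -1.46 to -0.083, adjusted p = 0.318). With single libraries left out, the unadjusted p was above 0.05 in 4 of 6 fits, and without control library 3 the log2 fold change was -0.50 (unadjusted p = 0.115 from limma). It shares 5.83% of its exon bases with Gm13256 and 9230102O04Rik, and the sources used here do not say how such reads were counted. None of the 4 tested inner root sheath genes was called. The smallest p among them was that of Krt71 (log2 fold change 3.26, adjusted p = 0.191), which was at 0 in control libraries 1 and 2.

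Trp63 encodes p63, on which basal cells of stratified epithelia depend, and is found on chromosome 16 (plus strand, 25683763 to 25892102). It had 9700, 12759 and 10381 normalized counts in control and 8087, 9564 and 11150 in ILK-K5 libraries. The genotypes overlapped and the libraries of each differed little, so that the interval was among the narrow ones (log2 fold change -0.19, standard error 0.29, 95% interval -0.86 to 0.47, adjusted p = 0.902). The gene-level table does not separate the isoforms of p63.

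For comparison with Runx1, the 250 bases before a RefSeq start site are shown for Foxc1 and Gata3, with the same letters in capitals. Foxc1 had the lowest log2 fold change of the set (chr13:31806396-31806645, plus strand), and Gata3 the smallest p-value after Runx1 (chr2:9878601-9878850, minus strand). This start site of Gata3 lies inside the gene as annotated, whose 5′ end is at 9890034.
Foxc1: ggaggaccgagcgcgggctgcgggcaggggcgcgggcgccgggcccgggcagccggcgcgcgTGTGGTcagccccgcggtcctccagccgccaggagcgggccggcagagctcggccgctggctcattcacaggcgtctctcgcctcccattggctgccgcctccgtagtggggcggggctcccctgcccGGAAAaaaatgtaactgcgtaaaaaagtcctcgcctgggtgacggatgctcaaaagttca
Gata3: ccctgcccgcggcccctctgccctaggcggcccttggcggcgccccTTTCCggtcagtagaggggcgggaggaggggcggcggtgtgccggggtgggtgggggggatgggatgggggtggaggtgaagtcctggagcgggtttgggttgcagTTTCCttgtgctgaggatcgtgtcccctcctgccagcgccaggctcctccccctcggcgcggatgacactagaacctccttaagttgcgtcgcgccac
The Foxc1 window of 300 bases holds the Runx letters at position 63 and the Nfat core at positions 191 and 256, the last past the start site. The Gata3 window holds the Nfat core at positions 47 and 153. Letters of the other families were searched on both strands in the same windows and in those of Runx1, and were in none of them. They were ACAAAG for Sox proteins, found in 18.7% of all windows, TAATTA for Lhx proteins, found in 5.29%, and GGTGTGA for Tbx proteins, found in 3.98%. For Fox proteins they were GTAAACA, found in 3.65% of all windows, and for Gata proteins AGATAA, found in 11.2%. RefSeq windows were at hand for 6 of the 10 factors, also for Lhx2, Nfix and Tbx1, with 12 windows in all. The windows of Sox9, Nfib, Trp63 and Nfatc1 are not shown.

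Levels of different genes were compared as FPKM, which scale the counts by a length for each gene. The sources used here do not give these lengths, and the order of the genes depends on them. In control bulge SCs Trp63 had the highest mean (134 ± 19.6 FPKM, SD, n = 3), followed by Nfib (90.9 ± 32.2), Tbx1 (62.1 ± 34.1), Sox9 (52.0 ± 12.7) and Lhx2 (46.1 ± 21.8). Nfix (23.3 ± 12.3), Nfatc1 (17.7 ± 2.92), Foxc1 (17.6 ± 14.3), Gata3 (17.2 ± 6.23) and Runx1 (11.1 ± 0.690) followed. The ranges of neighbours in this order overlapped except for Gata3 and Runx1, and Runx1 had the lowest mean, although Foxc1 was lower in control library 3 (5.23). In ILK-K5 bulge SCs Trp63 (117 ± 18.7) again led, above the range of Sox9 (63.7 ± 21.2), which was followed by Nfib (56.1 ± 5.41) and Tbx1 (56.0 ± 12.2) with overlapping ranges. Lhx2 (40.2 ± 3.37) lay below the range of Tbx1 and above that of Runx1 (28.7 ± 7.48). Runx1 thus stood in place 6, overlapping with Nfix (25.8 ± 12), and Nfatc1 (11.7 ± 2.16), Gata3 (9.68 ± 0.539) and Foxc1 (6.71 ± 2.48) came last with overlapping ranges. The summed FPKM of all 10 factors were 412 to 548 in control and 389 to 445 in ILK-K5 libraries.

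**Figure D4:**
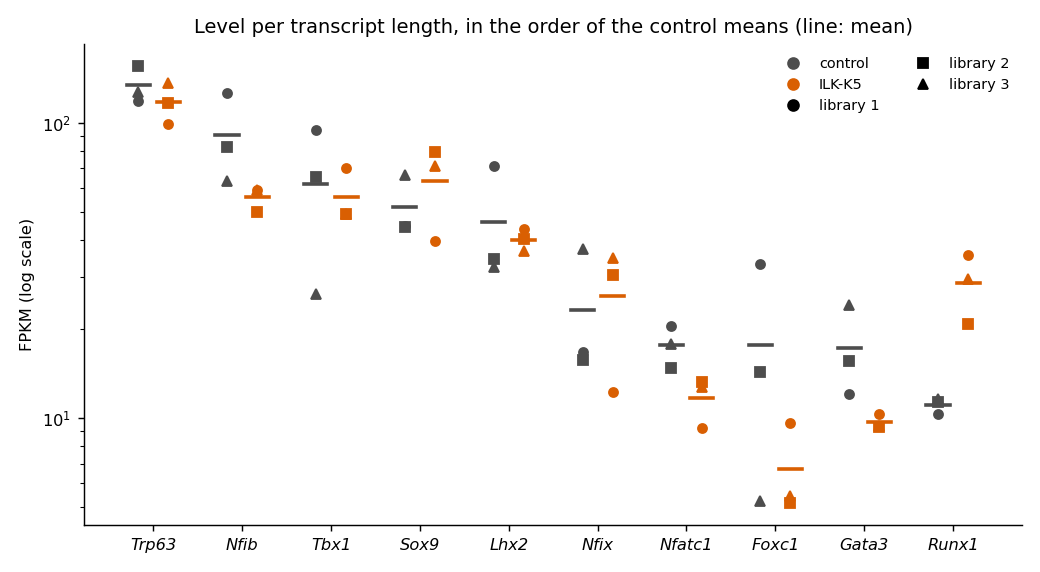
FPKM of the 10 factors on a log scale, in the order of their control means, with a symbol for each control (grey) and ILK-K5 (orange) library and a line at each mean. Trp63 is highest in both genotypes, and Runx1 moves from the last place in control (11.1) to place 6 in ILK-K5 (28.7).

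Paralogs of the factors can share their binding sites, so that each factor was also set against its family as a share of the summed FPKM. Runx1 held 63.9%, 77.6% and 88.3% of the Runx family in control and 81.1%, 75.3% and 83.2% in ILK-K5 libraries, which overlapped (76.6% ± 12.2 and 79.9% ± 4.09, SD, n = 3 each, exact two-sided permutation test, p = 0.8). The difference in this share, 3.25 percentage points, was -3.08 without control library 1. Runx3 and Runx2 lay in the same direction as Runx1 and were not called. Runx3, also expressed by leukocytes, had 228, 154 and 62.4 normalized counts in control and 350, 288 and 238 in ILK-K5 libraries (log2 fold change 1.14, standard error 0.46, adjusted p = 0.335), and Runx2 had 96.5, 10.6 and 21.8 against 99.0, 81.8 and 94.5 (log2 fold change 1.65, standard error 0.71, adjusted p = 0.384). The Nfatc1 share of the Nfat family was 32.9%, 29.3% and 32.0% in control and 19.8%, 27.1% and 25.3% in ILK-K5 libraries. It was lower in all 3 ILK-K5 libraries (31.4% ± 1.87 and 24.0% ± 3.81, SD, n = 3 each, exact two-sided permutation test, p = 0.1, the smallest p that 3 against 3 libraries can give). Nfat5, Nfatc3 and Nfatc4 had log2 fold changes of -0.02, -0.09 and -0.10, and Nfatc2, the lowest of the family, of 0.97 (adjusted p = 0.480). Nfib held 75.1%, 71.2% and 50.8% of the Nfi family in control and 65.96%, 46.8% and 49.6% in ILK-K5 libraries (exact two-sided permutation test, p = 0.2), and Nfix held 9.96%, 13.4% and 29.99% against 13.6%, 28.7% and 29.1% (p = 0.6 from the same exact test). The Nfib share was low where the Nfix share was high, in control library 3 and in ILK-K5 libraries 2 and 3. Shares of the same sum are bound to each other, so that this pattern cannot show opposite changes in level. Nfib itself had 126, 83.0 and 63.4 FPKM in control and 59.3, 49.9 and 59.2 in ILK-K5 libraries. Nfix had 16.7, 15.7 and 37.4 FPKM in control and 12.2, 30.6 and 34.7 in ILK-K5 libraries. Nfia and Nfic had log2 fold changes of -0.34 (adjusted p = 0.753) and 0.59 (adjusted p = 0.697). Trp63 made up most of the p53 family in every library (84.7% to 92.5% in control and 83.7% to 91.6% in ILK-K5), and Trp53 and Trp73 had log2 fold changes of 0.12 and -0.14. With 5 factor shares compared, none could reach an exact p-value below 0.1.

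**Figure D5:**
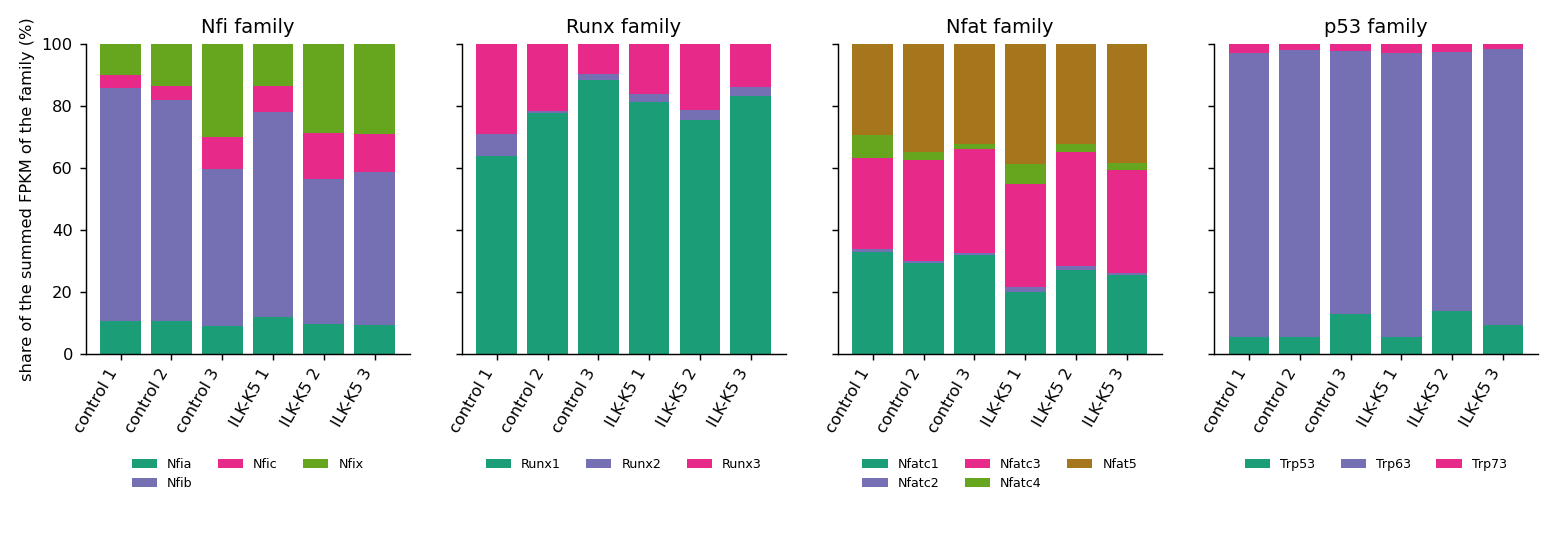
Share of each paralog in the summed FPKM of the Nfi, Runx, Nfat and p53 families, as stacked bars that add to 100% in each of the 6 libraries. The Nfatc1 share is lower in each ILK-K5 library than in each control library, the Runx1 share overlaps between the genotypes, and the Nfib share is lowest in control library 3 and ILK-K5 libraries 2 and 3.

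Of 43 paralogs of the 10 factors, 22 were tested, and none was called, in either direction, by limma. They were divided evenly, with 11 above 0 and 11 below and a median log2 fold change of 0.05. Before adjustment, p was under 0.05 for 6 of them (12.3% of all genes). In every ILK-K5 library, 5 of the 22 were higher (10.9% of all genes), and Nfia was lower (6.95% of all genes). Sox7, a SoxF factor known from endothelium, had the smallest p-value (log2 fold change 2.23, standard error 0.59, adjusted p = 0.0840), followed by Sox13 (1.44, adjusted p = 0.270) and Runx3. Of 13 partners and regulators, 10 were tested and none was called or had an unadjusted p-value under 0.05. The smallest p-values were those of Rcan3, a calcineurin regulator upstream of Nfat (log2 fold change 0.67, adjusted p = 0.670), Lmo4, which competes for the Lhx cofactor Ldb1 (-0.31, adjusted p = 0.839), and Cbfb, the shared partner of the Runx proteins. Cbfb had 973, 1206 and 845 normalized counts in control and 1174, 1052 and 1148 in ILK-K5 libraries, which overlapped (log2 fold change 0.17, standard error 0.25, adjusted p = 0.893).

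Other factors of the follicle and the epidermis were taken from 3 further lists. None of the 19 other follicle SC factors was called, with a median log2 fold change of 0.11. The smallest p-values were those of Nr3c1, the glucocorticoid receptor (-1.01, standard error 0.28, adjusted p = 0.102), Stat3 (1.01, standard error 0.32, adjusted p = 0.166) and Vdr, the vitamin D receptor (0.83, standard error 0.28, adjusted p = 0.218). In every ILK-K5 library, 5 of the 19 were higher (10.9% of all genes) and 2 lower (6.95% of all genes). Nr3c1, Stat3 and Vdr are among these. Of the 14 tested factors of the hair germ, matrix and root sheath, Dlx3, a homeobox factor of the hair shaft and of differentiating epidermis, was called lower and none higher. Dlx3 had 281, 125 and 218 normalized counts in control and 28.5, 60.9 and 49.7 in ILK-K5 libraries, with no overlap. It fell by 2.13 on the log2 scale (standard error 0.45, adjusted p = 0.0333), and with single libraries left out it was called in 0 of 6 fits (adjusted p from 0.0501 to 0.102). Cux1 and Lef1 followed with log2 fold changes of 0.96 (adjusted p = 0.263) and 0.70 (adjusted p = 0.422).

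Of the 14 epidermal differentiation factors, 2 were called higher and none lower, and Cebpb is the one described here. It acts in keratinocyte differentiation and is also a factor of macrophages, whose transcripts were higher as given above, and the part of macrophage RNA in this call was not tested. Cebpb had 11.6, 12.2 and 18.9 normalized counts in control and 99.0, 105 and 65.3 in ILK-K5 libraries. It rose by 2.58 on the log2 scale (standard error 0.47, adjusted p = 0.0178) and was called in 2 of 6 fits with a library left out, the ones without control library 1 or 3 (adjusted p up to 0.142, in the fit without ILK-K5 library 2). Grhl1 was lower in every ILK-K5 library, as were 6.95% of all genes, and was not called (log2 fold change -0.74, standard error 0.28, adjusted p = 0.289). Among 8 tested markers of differentiated keratinocytes, Lor was called lower and none higher (median log2 fold change -1.16).

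Genes linked to the factors by earlier work were counted as well. None of 16 genes linked to Trp63 was called, with 10 above 0 and 6 below and a median log2 fold change of 0.27. The smallest p-values were those of Fras1 (1.14, adjusted p = 0.359), Krt14 (0.91, adjusted p = 0.366) and Itga3 (0.79, adjusted p = 0.375). Of 9 genes linked to the other factors, Inhbb was called higher and none lower. Inhbb encodes a subunit of activin B. It had 170, 100.4 and 274 normalized counts in control and 552, 752 and 894 in ILK-K5 libraries, which did not overlap, and rose by 2.10 on the log2 scale (standard error 0.39, adjusted p = 0.0191), with a call in 3 of 6 fits with a library left out, but not without control library 2 or ILK-K5 library 2 or 3 (adjusted p up to 0.0927). Prlr, the prolactin receptor, which is linked to Nfatc1, had 3360, 2460 and 1550 normalized counts in control and 781, 870 and 1385 in ILK-K5 libraries. It was lower in every ILK-K5 library and was not called (log2 fold change -1.25, standard error 0.35, adjusted p = 0.110). Bmp2 was also lower in every ILK-K5 library (-0.83, standard error 0.31, adjusted p = 0.276). Of the 9 genes, 2 were higher and 2 lower in every ILK-K5 library, against 10.9% and 6.95% of all genes. Before adjustment, p from limma was under 0.05 for 4 of the 9, against 12.3% of all genes.

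The patterns of the factors across the 6 libraries were compared pair by pair. Taking log2 normalized counts centred on each gene, the closest pair was Sox9 and Nfix, with a root mean square difference of 0.29, and Foxc1 and Nfix were the farthest apart, with 1.49. Nfatc1, Nfib, Lhx2 and Trp63 lay within 0.50 of each other. In both genotypes library 1 was the highest for 4 factors (Lhx2, Tbx1, Foxc1 and Nfib) and the lowest for Trp63. Tbx1 and Foxc1 had standard deviations of 0.95 and 1.33 on the log2 scale among the controls, above the median of 0.60 over all genes tested, and 0.30 and 0.49 among the ILK-K5 libraries, where the median was 0.41.

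Among 16121 tested genes with a symbol, those nearest in pattern to each factor over the 6 libraries were listed by the same measure. The nearest to Runx1 were Ccdc88a (root mean square difference 0.13) and Kctd4 (0.14). Ccdc88a had 145, 143 and 140.0 normalized counts in control and 495, 228 and 399 in ILK-K5 libraries, high and low in the same libraries as Runx1, and neither gene was called (adjusted p = 0.0818 and 0.0698). The nearest to Sox9 were Nsmce2 (0.022) and Fam53c (0.068), and to Trp63 Bcas2 (0.035) and Efcab14 (0.036). Timm22 and Ust were the nearest to Lhx2, Parp2 and Lamb3 to Nfatc1, Slc25a4 and Tlcd2 to Tbx1, Gm11027 and Gm23492 to Foxc1, Odc1 and Xpo1 to Nfib, 9530068E07Rik and Mef2d to Nfix, and Fam57a and Evpl to Gata3. Their root mean square differences lay between 0.062 and 0.16. With 6 libraries and this many genes, near patterns of this size are a description only.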

How the data were processed

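RNA of sorted bulge SCs was amplified as cDNA with the Ovation RNA-Seq System V2 and made into Nextera XT libraries. According to the submitters' processing notes, reads were aligned with TopHat2 2.0.14 and Bowtie2 2.2.4 to GRCm38 and analysed in DESeq2 1.6.3. The paper adds that adapters were removed with flexbar and that reads of ribosomal RNA were filtered out before mapping. The counting program and its use of strand are not given in the sources used here, nor is its annotation beyond the genome build. The authors deposited a signal table of normalized counts per gene, in which all values (100%) were whole reads divided by a size factor of the library (tolerance 0.01 reads), and a table of FPKM, which equal these normalized counts times a constant per gene. Reads were recovered from the first table, in which 1 read was worth 0.726 to 1.52 normalized counts. The deposited tables of the authors' own comparison (mean, log2 fold change, standard error, Wald statistic and p-values) were not used.

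Genotypes were compared with limma 3.58.1 in R 4.3.3 (lmFit, and eBayes with a trend, two-sided) on log2 of the normalized count plus 1, without covariates, over the 16368 genes that averaged 10 or more normalized counts. Although the study used DESeq2, the deposited values are not counts, so that DESeq2 1.42.0 and edgeR 4.0.16 on the recovered reads served as alternatives. A gene was called where its p-value, adjusted by Benjamini-Hochberg, did not exceed 0.05, and fold changes are on the log2 scale with this pseudocount. Family shares were compared with an exact permutation test over libraries. The steps were tested on simulated counts with known changes. These changes were larger than any seen for the 10 factors, and all genes were given the same dispersion. The simulation therefore does not show how well changes of the size seen here are found. Further alternatives were pseudocounts of 0.1 and 5, no filter, a mean of at least 50, quantile normalization, TMM scaling, scaling to basal keratinocyte genes, the FPKM table with a pseudocount of 0.1, a replicate block, a term for the number in the column names, libraries 2 and 3 only, and leaving out each library.

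Of the 43274 genes, 42193 (97.5%) had a symbol in GENCODE M21 or the gene table, from which coordinates were taken. Tables were made in Python 3.11.15. The factors and all lists were chosen with earlier results of these data known. Named are the 10 factors, Ilk, Cd34 and Itga6, the called genes of each list with those of smallest p up to 3, the paralogs of the Nfi, Runx, Nfat and p53 families and Foxc2, and the 2 genes nearest in pattern to each factor. Marker lists are given as counts of calls, some also as sums. A called gene of the epidermal differentiation list is not reported here.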

Additional observations from a re-analysis of the deposited data

How the results depend on the processing

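The direction of 6 factors (Sox9, Nfatc1, Foxc1, Runx1, Nfib and Gata3) held in all 19 alternatives, and no factor but Runx1 was called in any. With no filter, a mean of at least 50, a replicate block or the number term, log2 fold changes cannot differ from the main fit. The FPKM table, a constant per gene times the normalized counts, can change them only through its pseudocount. The same direction in these fits was thus fixed in advance or nearly so. With the FPKM table or with libraries 2 and 3 only, 0 factors were called higher, and 0 to 1 when single libraries were left out. No factor was called lower in any alternative. Over all genes, 479 higher and 98 lower calls became 772 and 280 with DESeq2 on the recovered reads, 846 and 286 with a term for the number in the column names, 222 to 559 and 32 to 98 when single libraries were left out. The lowest counts were those without control library 2 (310 and 35) and ILK-K5 libraries 1 (268 and 40), 2 (222 and 32) and 3 (245 and 41). The other factors of the lists gave 2 higher and 1 lower call, and 5 and 2 with the number term, 1 higher with libraries 2 and 3 only, 2 lower with DESeq2, and 1 to 4 higher and 0 to 1 lower when single libraries were left out. With single libraries left out, the differences in family shares ran from -3.08 (without control library 1) to 9.09 percentage points for Runx1, from -8.90 to -5.25 for Nfatc1, from -19.1 to -6.89 for Nfib, from 2.08 to 12.1 for Nfix and from -4.12 to 0.55 (without ILK-K5 library 2) for Trp63, so that those of Runx1 and Trp63 turned. With libraries 2 and 3 only, Dlx3 (adjusted p = 0.143), Cebpb (0.0789) and Inhbb (0.0593) were not called.

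With a replicate block, 848 genes were called higher and 269 lower, and 4 higher and 2 lower among the other factors of the lists. Runx1 was called with it (adjusted p = 0.00728), and no other of the 10 factors was. Deviations from the group means correlated at 0.529, 0.020 and 0.307 in the same-numbered pairs 1 to 3. Not every library correlated best with its own number. With 3 libraries per genotype these correlations cannot decide whether the numbers mark a pairing. The paper states that controls were littermates of the ILK-deficient mice, but not which libraries share a litter. The main fit therefore took no pairing, and a shared litter or batch of same-numbered libraries was not tested.

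Among the genes recomputed under each alternative, which leave out those nearest in pattern and most markers, the following log2 fold changes reversed, none of them called. With basal keratinocyte scaling, which moved the median of all genes to 0.14, the log2 fold changes were 0.035 for Lhx2, 0.12 for Nfat5, 0.042 for Nfatc3 and 0.039 for Nfatc4. With quantile normalization they were 0.071 for Trp63 and 0.050 for Nfat5, and with libraries 2 and 3 only 0.20 for Lhx2 and 0.18 for Nfatc4. Tbx1 had -0.18 with DESeq2 and -0.14 with edgeR. With single libraries left out, values ran from -0.30 to 0.26 (without control library 1) for Lhx2, from -0.51 (without control library 3) to 0.41 for Tbx1, from -0.15 (without ILK-K5 library 3) to 0.61 for Nfix, from -0.094 (without control library 1) to 0.79 for Ilk, from -0.084 to 0.065 (without ILK-K5 library 2) for Nfat5, from -0.56 to 0.61 (without control library 1) for Nfatc4 and from -0.23 (without ILK-K5 library 2) to 0.62 for Trp53. Tbx1 also turned without ILK-K5 library 1 (-0.16), Nfix without control libraries 1 and 2 (-0.042 and -0.091) and ILK-K5 library 2 (-0.054), Nfatc4 without ILK-K5 libraries 2 and 3 (0.048 and 0.19), and Trp53 without control library 1 (-0.19) and ILK-K5 library 3 (-0.025). The cause of these changes was not tested. With 3 libraries per genotype, the intervals of 9 factors leave differences that could not be detected here.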
